A study of Mus musculus with 16 samples.

Results

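The platelet-derived growth factor (PDGF) system was followed in mouse spleen through 7 genes: the ligand genes *Pdgfa*, *Pdgfb*, *Pdgfc* and *Pdgfd*, the receptor genes *Pdgfra* and *Pdgfrb*, and the receptor-like gene *Pdgfrl*. They were taken by name, as the ligands and receptors of this family, and are 7 of 54838 gene identifiers in all. RNA was sequenced from 8 size-selected samples and 8 whole spleen samples of C57BL/6 mice, a standard inbred strain. The size-selected samples are cells that stayed on a strainer after mincing, enzyme digestion and lysis of red cells. Spleen glia, cells that accompany nerve fibres, is the source the labels give for them. Both groups carry the same 8 numbers, 4 male and 4 female, so each number has 1 sample of each kind. The labels give no mutation or treatment and no age, and they do not describe the preparation of whole spleen separately. They do not say that each number is 1 animal, so p-values measure the spread between these samples.

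PDGF ligands are secreted dimers that bind receptor tyrosine kinases on mesenchymal cells, where they drive growth, migration and survival. PDGF-A and PDGF-C act mainly through the alpha receptor, PDGF-D mainly through the beta receptor, and PDGF-B through both. PDGF-B from endothelium recruits mural cells (pericytes and smooth muscle) to vessels, and in lymphoid organs both receptors are known from fibroblastic and perivascular stroma.

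Totals were 13119992 to 19944440 estimated counts in the size-selected samples and 12153770 to 16282454 in whole spleen. Of the whole spleen samples, number 427 had the highest summed level of the mural, smooth muscle, fibroblast, endothelial, glia, mesothelial and macrophage marker lists. It was also the highest for 4 of the 7 PDGF genes, so values without number 427 are given where they bear on a result. The size-selected columns carry a feature that the whole spleen columns lack: the values of 3898 genes were multiplied by constants, which was found from the values and is mentioned in no label. *Pdgfb* carries the constant called middle here, from 0.770 to 0.858 over the samples, and *Pdgfd* and *Pdgfrb* carry the high constant, from 0.889 to 0.964. Restored counts are the values divided by these constants. The other 4 PDGF genes carry none.

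All 7 genes were more abundant in the size-selected samples, in 8 of 8 same-numbered pairs, and no gene had overlapping groups. The receptors differed most and *Pdgfb* least. By edgeR's quasi-likelihood test with Benjamini-Hochberg adjustment all 7 were called higher, where 37.5% of the 14510 genes tested were called higher and 67.9% were called in either direction. All 8 size-selected samples lay above all 8 whole spleen samples for 23.3% of the genes tested, and the groups did not overlap in either direction for 34.9%. *Pdgfd*, *Pdgfra*, *Pdgfrb* and *Pdgfrl* passed the count filter only through the size-selected samples. A gene that passes in that way had to differ, so the count of 7 is given as a description. These are bulk samples, in which fewer cells of a type and less RNA per cell cannot be told apart.

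**Figure D1:**
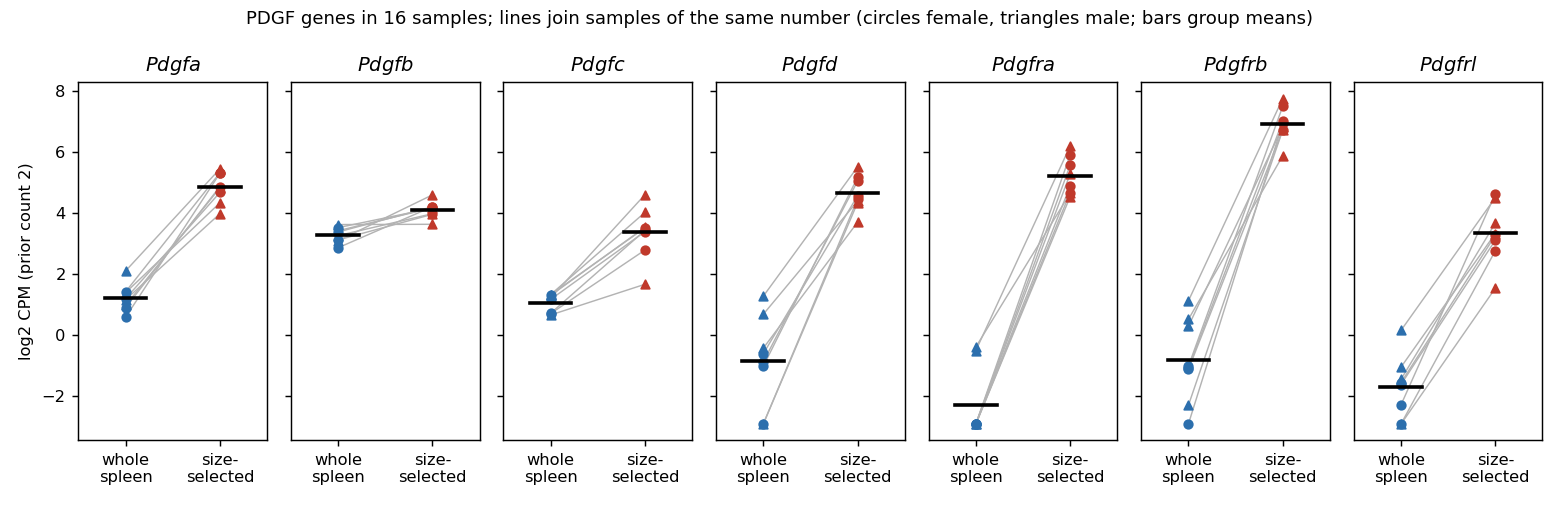
Log2 CPM (CPM, library-scaled counts, prior count 2) of the 7 PDGF genes in 8 whole spleen and 8 size-selected samples, with lines joining samples of the same number, circles for female and triangles for male numbers, and bars at the group means. Every line rises, the lines of *Pdgfb* are the flattest, and 6 of 8 whole spleen points of *Pdgfra* lie at the level of 0 counts, the lowest value drawn.

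*Pdgfa* (ENSMUSG00000025856, chromosome 5, 138976014 to 138997370 on the minus strand, GENCODE M21 on GRCm38) encodes the ligand of the alpha receptor. It measured 15.6, 28.7 and 43.5 CPM (counts scaled per library total; lowest, median and highest) in the size-selected samples and 1.37, 2.13 and 4.16 CPM in whole spleen. Size-selected sample 435 was the lowest and 427 the highest, while in whole spleen 427 was the highest, still well under every size-selected value. The means were 30.1 ± 9.96 and 2.30 ± 0.848 CPM (SD, n = 8 each). Their log2 fold change was 3.71 (SE 0.25) with an edgeR adjusted p = 6.03e-10. An annotated antisense gene, *6330403L08Rik*, shares exons with *Pdgfa*. It measured 2.24 ± 1.28 against 0.412 ± 0.166 CPM (SD, n = 8 each). Whether reads were counted by strand is not given in the sources used here, so reads of the shared exons could belong to either gene.

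*Pdgfb* (ENSMUSG00000000489, chromosome 15, 79995874 to 80014977, minus strand) encodes the ligand that binds both receptors. In the size-selected samples it measured 12.3, 17.8 and 24.1 CPM, and in whole spleen 7.14, 9.87 and 12.2 CPM. The groups touch but do not overlap: the lowest size-selected sample and the highest whole spleen sample both carry number 435, and differ by 0.00906 on the log2 scale. The log2 fold change was 0.84 (SE 0.14) and the edgeR adjusted p = 4.24e-05, from means of 17.5 ± 3.37 and 9.75 ± 1.67 CPM (SD, n = 8 each). On restored counts it was 1.08 (SE 0.14), and the difference within number 435 was 0.25.

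*Pdgfc* (ENSMUSG00000028019, chromosome 3, 81036416 to 81214040, plus strand) encodes a ligand secreted in a latent form, which proteases activate by removing its CUB domain. It measured 3.04, 11.0 and 24.2 CPM in the size-selected samples and 1.45, 2.16 and 2.38 CPM in whole spleen. The size-selected values were spread widely around their mean, with 408 below the other 7 samples and 427 at the top, whereas whole spleen was even. The log2 fold change was 2.56 (SE 0.31) with an edgeR adjusted p = 8.19e-07, and without number 427 it was 2.35 (SE 0.29).

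*Pdgfd* (ENSMUSG00000032006, chromosome 9, 6168584 to 6378850, plus strand) encodes the other latent ligand, which acts through the beta receptor. It measured 12.9, 22.7 and 45.5 CPM in the size-selected samples. In whole spleen its counts were 0, 8, 28, 21, 5, 6, 8 and 0 in numbers 407, 408, 427, 435, 436, 445, 447 and 460. The male numbers 427 and 435 thus hold most of the whole spleen counts of this gene. The means were 26.7 ± 10.5 and 0.708 ± 0.786 CPM (SD, n = 8 each). Their log2 fold change was 5.25 (SE 0.52), and 5.61 (SE 0.48) without number 427. No p is given, since *Pdgfd* passed the count filter only through the size-selected samples.

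*Pdgfra* (ENSMUSG00000029231, chromosome 5, 75152292 to 75198215, plus strand) encodes the alpha receptor, a marker of fibroblasts in many tissues. It measured 23.0, 34.0 and 73.1 CPM in the size-selected samples. In whole spleen, 6 of 8 samples had 0 counts, while number 427 had 7 and number 435 had 9. A count of 0 allows up to 3 counts, which is 0.193 to 0.245 CPM over the whole spleen samples and covers counting error only. No p is given for *Pdgfra*, which passed the count filter only through the size-selected samples. From means of 40.2 ± 18.4 and 0.150 ± 0.279 CPM (SD, n = 8 each) the log2 fold change was 8.04 (SE 0.57), rank 50 of the 14510 genes tested. Without number 435 it was 9.03 (SE 0.59), and without number 427 it was 8.5 (SE 0.56). Among the female numbers whole spleen had no count at all, and there the size-selected mean of 40.4 CPM was at least 199-fold higher, against a floor of 3 counts per library.

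*Pdgfrb* (ENSMUSG00000024620, chromosome 18, 61045150 to 61085061, plus strand) encodes the beta receptor of pericytes, smooth muscle and reticular stroma. In the size-selected samples it measured 58.5, 117 and 215 CPM, with number 408 lowest and 427 highest. The whole spleen counts, in the order of numbers given for *Pdgfd*, were 14, 17, 25, 1, 5, 5, 5 and 0. Number 435, which had the most *Pdgfra* counts, had 1 count of *Pdgfrb*. The log2 fold change was 7.59 (SE 0.46), rank 73 of the genes tested, and 7.90 (SE 0.41) without number 427.

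*Pdgfrl* (ENSMUSG00000031595, chromosome 8, 40926212 to 40990785, plus strand) encodes a protein that resembles the outer part of the receptors and has no kinase domain. It measured 2.77, 9.71 and 24.5 CPM in the size-selected samples and from 0 to 0.979 CPM in whole spleen, where the highest sample had 12 counts. Number 408 was the lowest size-selected sample, with 40 counts, and number 436 the highest, with 450. The means were 12.1 ± 7.60 and 0.254 ± 0.317 CPM (SD, n = 8 each). Their log2 fold change was 5.58 (SE 0.59), and 6.07 (SE 0.56) without number 427. No p is given, since *Pdgfrl* passed the count filter only through the size-selected samples.

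**Figure D2:**
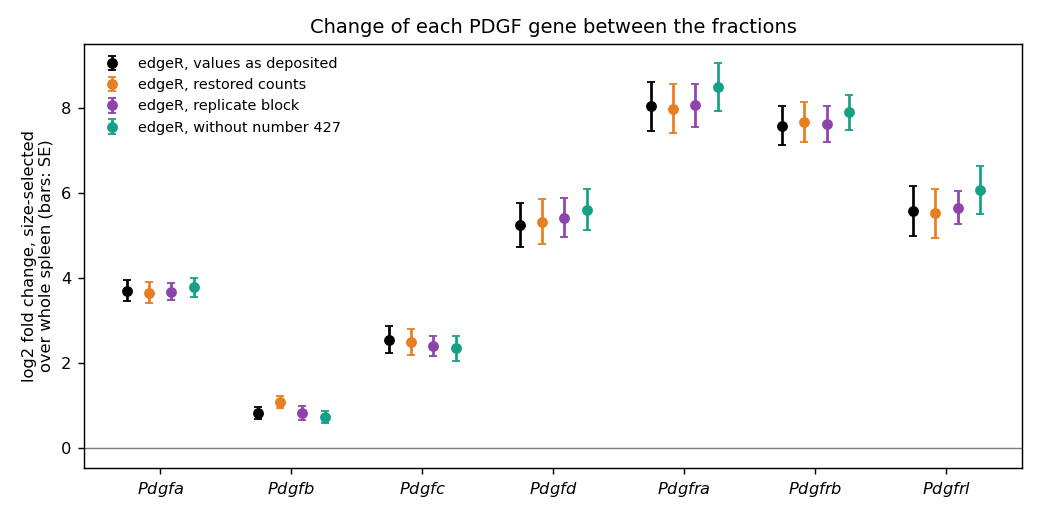
Log2 fold change of each PDGF gene, size-selected over whole spleen, with bars for the standard error, from edgeR on the values as deposited, on restored counts, with the number as a replicate block, and without number 427. The 4 estimates of a gene lie close together, from 0.73 to 1.08 for *Pdgfb*, and the order of the genes is the same in all 4.

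The stretch before the start of a gene is where many transcription factors bind, and it is shown for *Pdgfc*, *Pdgfd* and *Pdgfra*, which were called higher and whose RefSeq windows (GRCm38.p6) hold no annotated exon. Each run is the 250 bases before the RefSeq start, on the plus strand, at chr3:81036166-81036415, chr9:6168236-6168485 and chr5:75152001-75152250. Capitals mark matches to the motifs searched, on both strands: the GC box letters GGGCGG, then CCAAT, next the TATA box letters TATAAA, and last the CArG box, the binding sequence of serum response factor.
Pdgfc: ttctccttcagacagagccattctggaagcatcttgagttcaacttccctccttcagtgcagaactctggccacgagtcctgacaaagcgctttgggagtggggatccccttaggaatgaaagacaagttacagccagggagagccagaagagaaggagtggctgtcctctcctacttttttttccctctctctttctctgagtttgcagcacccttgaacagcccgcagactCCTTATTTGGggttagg
Pdgfd: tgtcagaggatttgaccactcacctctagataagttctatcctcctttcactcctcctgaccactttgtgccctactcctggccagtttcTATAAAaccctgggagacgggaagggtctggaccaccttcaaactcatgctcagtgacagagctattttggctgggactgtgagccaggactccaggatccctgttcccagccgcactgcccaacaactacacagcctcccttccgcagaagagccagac
Pdgfra: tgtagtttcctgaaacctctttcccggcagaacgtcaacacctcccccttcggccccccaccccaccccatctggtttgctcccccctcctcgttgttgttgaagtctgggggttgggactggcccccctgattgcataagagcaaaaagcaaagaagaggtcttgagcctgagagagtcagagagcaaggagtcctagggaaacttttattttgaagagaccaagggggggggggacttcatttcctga
The *Pdgfc* window holds 1 CArG box, which 1.47% of 32851 windows of this length hold. The *Pdgfd* window holds 1 TATAAA, found in 12.4% of windows. The *Pdgfra* window holds none of the 4 motifs, of which GGGCGG occurs in 32.7% and CCAAT in 33.8% of windows. A match is a description of the letters and says nothing of binding. *Pdgfb*, *Pdgfrb* and *Pdgfrl* are named only, and the windows of *Pdgfa* overlap annotated exons and are not shown.

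Levels of different genes were compared as CPM per kilobase of merged exons. In the size-selected samples *Pdgfrb* led at 23.4 ± 8.84 CPM per kb, followed by *Pdgfa* at 9.66 ± 3.19, *Pdgfd* at 8.46 ± 3.33 and *Pdgfb* at 4.2 ± 0.811 (SD, n = 8 each). *Pdgfra* (4.01 ± 1.84), *Pdgfrl* (3.88 ± 2.43) and *Pdgfc* (2.31 ± 1.24 CPM per kb, SD, n = 8 each) closed the order. Neighbours in this order overlapped in range, although *Pdgfrb* exceeded *Pdgfa*, *Pdgfd* exceeded *Pdgfb* and *Pdgfrl* exceeded *Pdgfc* within 8 of 8 samples. *Pdgfra* and *Pdgfrl* exceeded each other in 4 samples each. The authors' deposited table, which holds 5 of the 7 genes, gives mean TPM of 31.8 for *Pdgfrb* and 30.8 for *Pdgfa*, then 12.9 for *Pdgfd*, 10.8 for *Pdgfrl* and 8.67 for *Pdgfra*. On that scale *Pdgfrb* and *Pdgfa* were nearly level, and *Pdgfrl* stood above *Pdgfra*.

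The order differed in whole spleen. *Pdgfb* led at 2.34 ± 0.402 CPM per kb, above *Pdgfa* at 0.737 ± 0.272 with no overlap, and *Pdgfc* followed at 0.390 ± 0.0827 (SD, n = 8 each). *Pdgfd*, *Pdgfrb*, *Pdgfrl* and *Pdgfra* averaged 0.224, 0.126, 0.0813 and 0.0150 CPM per kb, with ranges that overlap between neighbours. The beta receptor exceeded the alpha receptor per length 5.84 times in the size-selected means. With the longest transcript as the length the ratio was 4.03, and from the TPM means of the authors' deposited table it was 3.67.

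**Figure D3:**
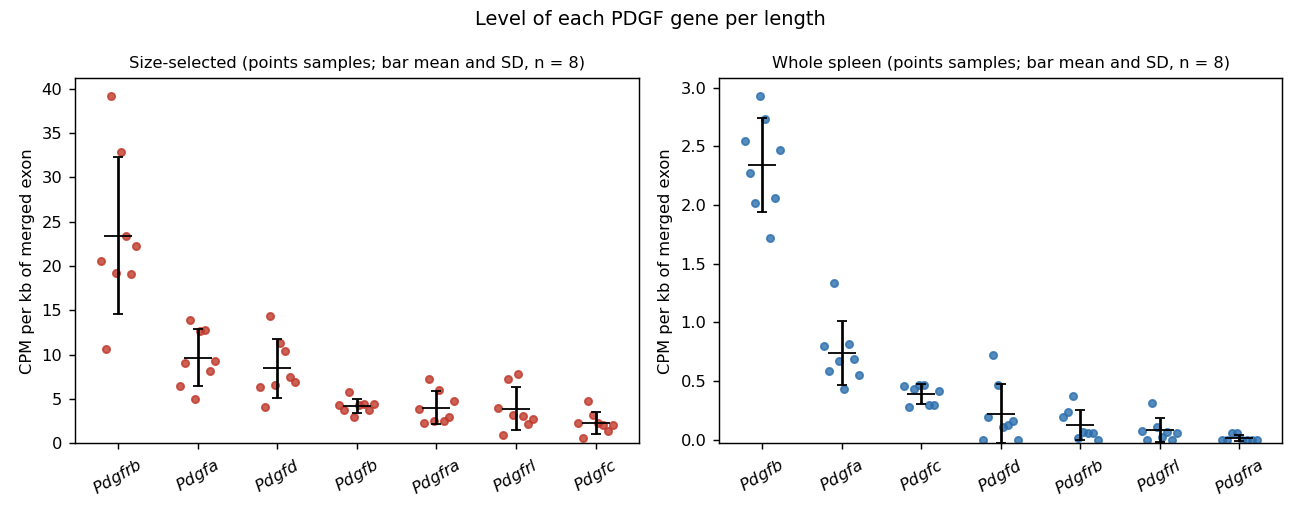
CPM per kb of merged exon for each PDGF gene in the size-selected (left) and whole spleen (right) samples, ordered by mean, with points for samples and bars for the mean and SD (n = 8). The vertical scales differ between the panels, *Pdgfrb* leads on the left at 23.4 and *Pdgfb* on the right at 2.34.

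Ratios compared pairs of genes within a sample, which takes out any change common to both genes. The log2 ratio of *Pdgfa* to *Pdgfb* (CPM, prior count 2) was 0.73 ± 0.34 in the size-selected samples and -2.07 ± 0.62 in whole spleen (SD, n = 8 each), and no values overlapped. The ratio was higher in 8 of 8 pairs, by 2.80 on average. The exact two-sided permutation p was 0.000155, the smallest that 12870 splits allow, and 0.000233 after adjustment over all the ratios. For the other 2 ratios no p is given. Those splits do not keep the pairs. With the number as a replicate block the exact permutation p was 0.00781, the smallest that 256 sign patterns allow, and 0.0117 adjusted. On restored counts the difference was 2.51. Between the latent ligands, the log2 ratio of *Pdgfc* to *Pdgfd* was -1.28 ± 0.57 in the size-selected samples against 1.91 ± 1.55 in whole spleen (SD, n = 8 each), lower in all 8 pairs. Since *Pdgfd* passed the count filter only through the size-selected samples, the difference of -3.18 is given with no p. It was -3.77 with a prior count of 0.5, and the whole spleen value rests on few *Pdgfd* counts.

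The log2 ratio of *Pdgfrb* to *Pdgfra* was 1.70 ± 0.35 in the size-selected samples, from 1.34 to 2.33, and thus above 0 in all 8. In whole spleen it was 1.48 ± 1.73 (SD, n = 8), from -1.91 in number 435 to 3.43. Both receptors passed the count filter only through the size-selected samples, and *Pdgfra* had 0 counts in 6 whole spleen samples. The difference of 0.22 (higher in 4 of 8 pairs) is therefore given with no p. Its sign changed without number 435 (-0.32) and with a prior count of 0.5 (-0.79), and these counts do not show which receptor changed more.

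The size-selected samples also differed among themselves. Number 427 was the highest of the 8 for 6 of the 7 genes, and number 408 the lowest for 5 of them. The marker lists followed these ranks in part. In number 408 the summed CPM of the mural list (426), the smooth muscle list (714) and the endothelial list (2435) were the lowest of the 8, while the fibroblast and reticular list was lowest in number 435 (2449). In number 427 the smooth muscle (3478) and endothelial (6620) lists were the highest, and the B cell (962) and T cell (146) lists the lowest. The mural list was highest in number 460 (1442), which was highest for no PDGF gene. Number 436, highest for *Pdgfrl*, was highest for the fibroblast and reticular list (9471), the megakaryocyte list (675) and the glia list (771). The part of these lists in the differences between samples was not tested.

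**Figure D4:**
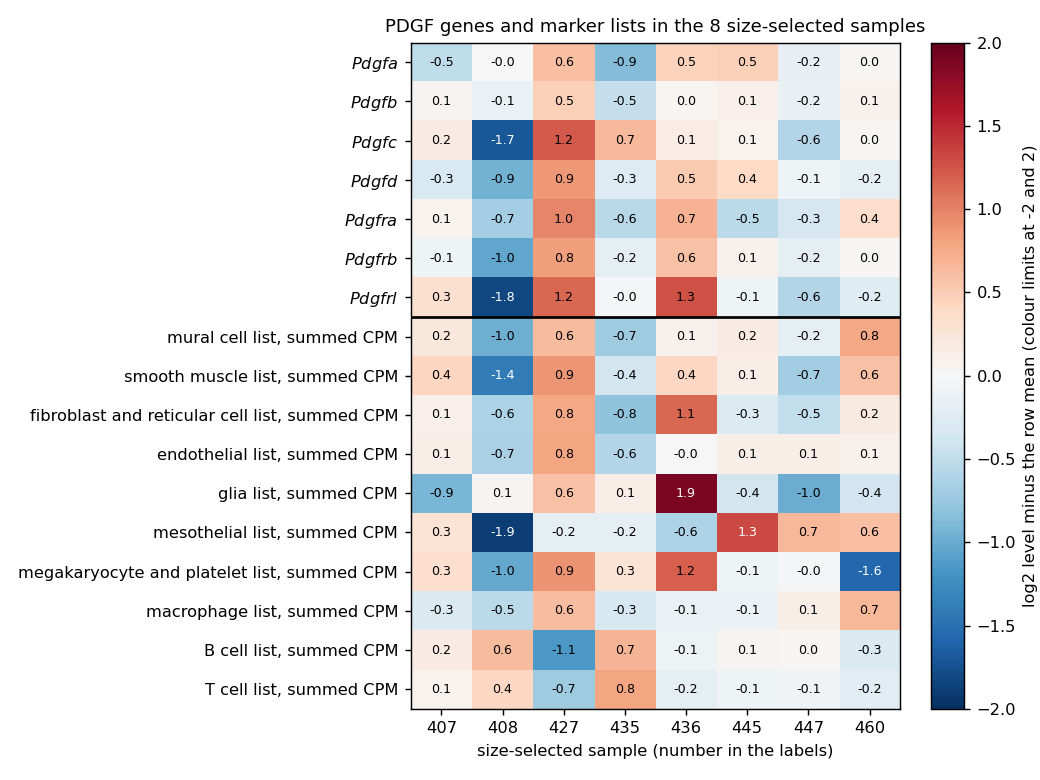
Log2 level of each PDGF gene (CPM, prior count 2) and of each marker list (summed CPM) in the 8 size-selected samples, as the difference from the row mean, with samples in columns. The column of number 427 is high and that of 408 low in most PDGF genes and in the mural, smooth muscle and endothelial lists, and the B and T cell lists run the other way there.

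Over the 8 size-selected samples, log2 CPM of all 21 pairs of PDGF genes correlated with r above 0, from 0.10 to 0.95. *Pdgfrb* went with *Pdgfd* at Pearson r = 0.95 (permutation p = 0.000397, adjusted p = 0.00833 over 21 pairs) and Spearman rho = 0.83 (permutation p = 0.0154, adjusted p = 0.0965). Without the 2 samples farthest from the median of *Pdgfd* r was 0.82. In every pair these samples were chosen by 1 gene only, the first in the order *Pdgfa* to *Pdgfd*, *Pdgfra*, *Pdgfrb*, *Pdgfrl*. With *Pdgfrl* its r was 0.95 (permutation p = 0.00258, adjusted p = 0.0271; rho = 0.79, permutation p = 0.0279, adjusted p = 0.0965), and 0.85 without the 2 farthest samples. Between the receptors r was 0.83 (permutation p = 0.00399, adjusted p = 0.028), with rho = 0.81 (permutation, adjusted p = 0.0965). It was weaker without the 2 farthest samples (r = 0.52). In all, 9 of 21 pairs passed the adjusted Pearson test and none the adjusted Spearman test. Without the 2 farthest samples the other pairs that had passed had r from 0.09 (*Pdgfc* with *Pdgfrb*, 0.84 over all 8) to 0.55. Leaving out a gene's extremes narrows its range, which by itself can lower r. How far these relations rest on 2 samples was not tested. The r of *Pdgfc* with *Pdgfd* went from 0.76 to -0.11 and with *Pdgfra* from 0.60 to -0.06. That of *Pdgfb* went the other way, from 0.37 to 0.82 with *Pdgfc* and from 0.50 to 0.66 with *Pdgfrl*. How often other genes correlate above 0 over these samples was not computed. The genes of a sample share its library and depth, and with 4 samples of each sex no correlation was computed within sex.

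Marker lists of the cells that the strainer could hold were compared between the groups. Over all genes tested, edgeR called 37.5% higher and 30.4% lower. All 8 tested mural markers were called higher, with *Des* at 367 ± 236 against 3.32 ± 2.07 CPM and *Kcnj8* at 135 ± 41.4 against 10.3 ± 1.64 CPM (SD, n = 8 each). So were 7 of 7 smooth muscle markers (*Acta2*, log2 fold change 6.28; *Tagln*, 6.49), 12 of 12 fibroblast and reticular markers (*Gsn*, 3.40; *Col3a1*, 7.58), and 10 of 10 endothelial markers (*Plvap*, 4.46; *Eng*, 4.31). The 12 glia markers past the filter were also all called higher (*Scn7a*, 8). With the number as a replicate block, and without number 436 or 460, 11 of the 12 were. All 6 mesothelial markers were called higher too (*Upk3b*, 6.41; *Msln*, 5.86). Of the tested markers, 4 mural, 2 smooth muscle, 3 fibroblast and reticular, 1 endothelial, 8 glia and 6 mesothelial ones passed the count filter only through the size-selected samples and had to differ, so these counts are a description.

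The summed CPM of the mural list ranged from 426 to 1442 in the size-selected samples and from 14.3 to 33.2 in whole spleen. For the fibroblast and reticular list the ranges were 2449 to 9471 and 130 to 385, and for the glia list 105 to 771 and 8.93 to 27.5. Only the mural marker *Higd1b* was at 0 in every whole spleen sample. The part of any of these cell types in the levels of the PDGF genes was not tested.

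Among blood cells, all 8 megakaryocyte and platelet markers, of a lineage that stores PDGF, were called higher (*Ppbp*, 1.57; *Itga2b*, 2.48), although their summed CPM overlapped between the groups (99.2 to 675 against 56.7 to 206). Of 8 macrophage markers 5 were called higher (*Vcam1*, 1.81; *Csf1r*, 1.92), and 6 with the number as a replicate block, on restored counts and with library totals, where *Cd5l* was called as well. Called lower were 5 of 6 B cell markers (*Cd79a*, -1.85; *Cd79b*, -1.48), 5 of 6 T cell markers (*Lck*, -1.44), 5 of 6 neutrophil markers (*S100a9*, -1.77; *S100a8*, -1.85) and 3 of 6 erythroid markers (*Hbb-bs*, -2.18; *Hba-a1*, -2.23). The shares over all genes tested were 37.5% called higher and 30.4% called lower. *Cd4* changed by 0.30 and was not called (edgeR adjusted p = 0.0669). It was called with the number as a replicate block, with library totals, and without number 427 or 436. The block called all 6 erythroid markers lower, and without number 427 only 3 neutrophil markers were called lower. The 2 globin genes have near-identical copies, so their separate levels are uncertain, and on restored counts *Hbb-bs* was not called (-1.64, edgeR adjusted p = 0.0554).

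Between the sexes no PDGF gene was called in the size-selected samples, where edgeR called 0.0397% of 15127 genes, and none had an unadjusted p under 0.05 by edgeR, DESeq2 or limma-voom. Without number 427 *Pdgfa* and *Pdgfd* had an edgeR unadjusted p of 0.0363 and 0.0274 (adjusted p = 0.387 and 0.369), and without number 408 *Pdgfc* had 0.0171 (adjusted p = 0.711). The means there were, for example, 134 ± 32.4 against 123 ± 65.9 CPM for *Pdgfrb* and 40.4 ± 16 against 40 ± 23.2 CPM for *Pdgfra* (SD, n = 4 each). In whole spleen edgeR called 0.194% of 13383 genes, and 2149 of the 13383 had an unadjusted p under 0.05. *Pdgfa*, *Pdgfb* and *Pdgfc* passed the filter there, none was called and none had an unadjusted p under 0.05 by edgeR. The receptors were too low for that filter. *Pdgfrb* passed it when 435 or 1 female number was left out, and was not called: the edgeR unadjusted p was 0.00561 without 435 (adjusted p = 0.231) and from 0.0447 to 0.0647 without 436, 445, 447 or 460. *Pdgfrb* measured 0.257 ± 0.172 CPM in the female whole spleen samples and 1.12 ± 0.813 CPM in the male ones (SD, n = 4 each), and *Pdgfra* was at 0 in all 4 female samples and in 2 of 4 male ones. In the fit without a filter edgeR gave an unadjusted p of 0.0200 for *Pdgfrb* (adjusted p = 0.286) and 0.00676 for *Pdgfra* (adjusted p = 0.176), and called neither. DESeq2 gave both an unadjusted p under 0.05 and no adjusted p.

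Whether the fraction difference depended on sex was tested as an interaction. No PDGF gene was called by edgeR, and 0.0% of 15760 genes were, while 744 had an unadjusted p under 0.05. *Pdgfra* and *Pdgfrb* had an unadjusted p under 0.05 by edgeR (0.0212 and 0.0243, both with an adjusted p of at least 0.999) and by DESeq2, and by limma-voom neither did. With the number as a replicate block 4 of the 7 genes had an unadjusted p under 0.05, also *Pdgfa* (0.0405) and *Pdgfd* (0.0452), and none was called by edgeR. Both receptors passed the count filter only through the size-selected samples. There the log2 difference between the sexes was 0.12 (SE 0.32) for *Pdgfrb* and 0.02 (SE 0.37) for *Pdgfra*. Their interactions thus rest on low whole spleen means, 0.257 CPM in females and 1.12 in males for *Pdgfrb*, and 0 and 0.300 for *Pdgfra*. The interaction of *Pdgfrb* was 2.20 (SE 0.89, log2), with the larger fold change in females. It lost its unadjusted p under 0.05 without number 408 (edgeR unadjusted p = 0.0538) or 460 (1.82, unadjusted p = 0.0633), and that of *Pdgfra* did without number 435 (unadjusted p = 0.0761).

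Other genes of the pathway, and the other receptors of the PDGF class (class III) with their ligands, were taken from lists by role. Of 67 tested, 42 were called higher and 10 lower by edgeR, where 37.5% of all genes tested were called higher and 30.4% lower. Among the 67, *Plat*, *Pcsk6*, *Cspg4* and *Il34* passed the filter only through the size-selected samples and had to differ. Changes in these lists are given as log2 fold changes. The proteases known to process PDGF precursors or free the latent ligands came first. Of 7 tested, 6 were called higher, *Plat* and *Pcsk6* having passed the filter only through the size-selected samples, and none lower, with a median log2 fold change of 1.06, where the median over all genes tested was 0.05. *Plat*, tissue plasminogen activator, which cleaves PDGF-C, rose from 0.838 ± 0.706 to 57.4 ± 23.0 CPM (SD, n = 8 each). Its log2 fold change was 6.10 (SE 0.40). *Plau*, urokinase, rose by 1.06 (SE 0.35, edgeR adjusted p = 0.0128) but stayed low, at 2.15 ± 0.83 CPM (SD, n = 8). The proprotein convertase genes *Pcsk5* and *Pcsk6* rose by 5.50 and 5.74, and *Furin* and *Pcsk7* by 0.64 and 0.93. *St14*, the matriptase gene, changed by 0.21 (SE 0.23) and was not called.

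All 5 tested genes for binding proteins and co-receptors were called higher, with a median of 4.34. *Sparc*, a matrix protein that binds PDGF, reached 1560.4 ± 507 CPM from 77.0 ± 39.8 (SD, n = 8 each). *Cspg4*, the proteoglycan NG2 of pericytes, rose by 6.60, the neuropilin genes *Nrp1* and *Nrp2* by 4.37 and 3.63, and *Lrp1*, an endocytic receptor, by 2.05. *A2m* did not pass the filter. *Cspg4* is also on the mural list and passed the filter only through the size-selected samples.

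The proteins that relay or end the signal inside the cell are shared with many other receptors. Of 20 transducers 12 were called higher and 4 lower, with a median of 0.35. Higher calls were 11 with a replicate block, on restored counts, and without number 408, 435, 436, 447 or 460. With library totals or without number 445 they were 13. The largest rise was *Gab1*, a docking protein, at 3.33 (SE 0.24), and the largest fall *Grb7*, an adaptor, at -1.69 (SE 0.35). Of 12 attenuators 4 were called higher, a share near the 37.5% over all genes, and 1 lower, against 30.4%, with a median of 0.14. *Spry4*, an inhibitor that growth factors induce, rose by 4.68 (SE 0.24), while *Acp1*, a phosphatase gene, changed by -0.32 (SE 0.11). The attenuators called higher were 6 with a replicate block and with library totals. Those called lower were 3 with a replicate block, on restored counts, with RLE scaling, and without number 435 or 460, and 0 with library totals, where *Acp1* had an edgeR adjusted p = 0.0996.

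Of 16 early target genes 10 were called higher and 4 lower, with a median of 1.42. Over all genes tested 37.5% were called higher and 30.4% lower. *Fos* rose most, from 116 ± 36.1 to 1234 ± 384 CPM (SD, n = 8 each), by 3.41 on the log2 scale (SE 0.21), and *Egr3* changed by -1.09 (SE 0.18). Tissue dissociation and many other stimuli are also known to induce such genes, and which stimulus moved them here was not tested. On restored counts, and with library totals, 2 were called lower, and 3 without number 435, 436 or 445.

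The other receptors of the PDGF class, class III, and their ligands gave 5 genes called higher and 1 lower of 7. The shares over all genes tested were 37.5% and 30.4%. Of the 7, *Il34* passed the filter only through the size-selected samples. *Csf1r*, the receptor of macrophages, rose by 1.92 (SE 0.22), and its ligand genes *Csf1* and *Il34* rose by 4.80 (SE 0.25) and 6.53 (SE 0.46). *Kit*, the receptor of mast and progenitor cells, rose by 0.51 (SE 0.18, edgeR adjusted p = 0.0167), and its ligand gene *Kitl* by 4.34 (SE 0.25). *Kit* was not called without number 447 (0.42, edgeR adjusted p = 0.0632) or 460 (0.40, edgeR adjusted p = 0.0681), which leaves 4 called higher. *Flt3* changed by -0.89 (SE 0.20) and was called lower, and its ligand gene *Flt3l* changed by 0.03 (SE 0.24) and was not called.

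**Figure D5:**
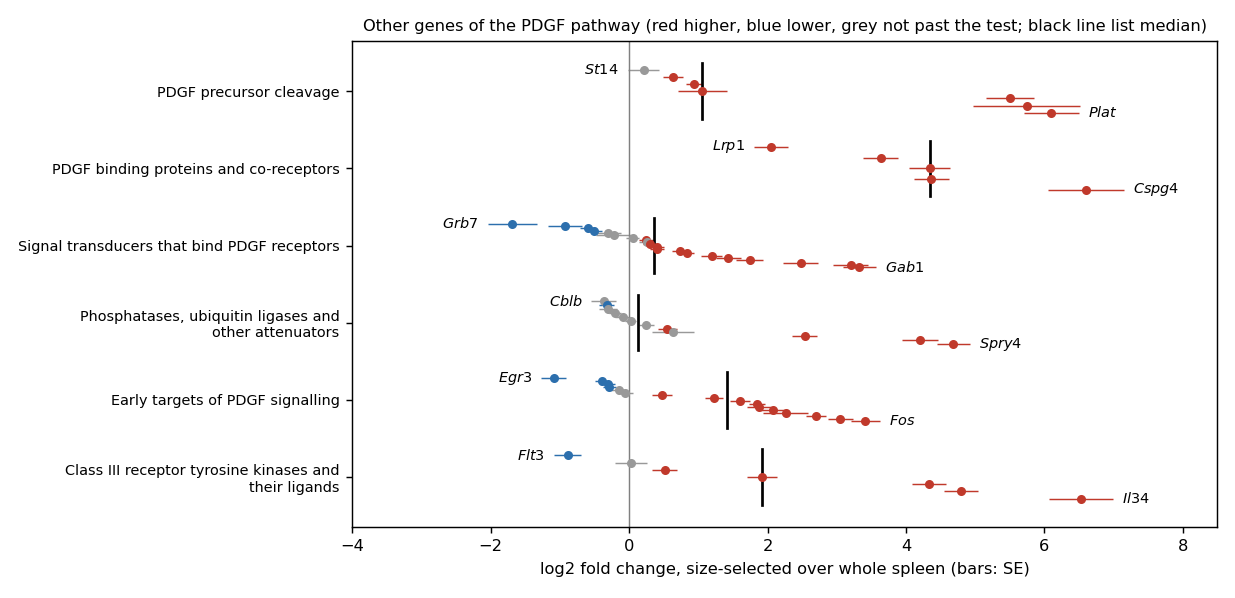
Log2 fold change, size-selected over whole spleen, of each tested gene of the pathway and class III lists, by role. Bars give the standard error, with red for called higher, blue for called lower, grey for not called, and a black line at each list's median. Binding proteins and co-receptors all lie to the right with a median of 4.34, and transducers and attenuators straddle 0.

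The genes most like each PDGF gene were named by the root mean square difference of centred log2 CPM over the 16 samples, among 9307 genes, a measure that the fraction difference dominates. Closest to *Pdgfra* were *Col1a2* (0.60), *Smoc2* (0.63), *Tagln* (0.65) and *Ltbp4* (0.65). Closest to *Pdgfrb* were *Adamts1* (0.79), *Olfml3* (0.80), *Bgn* (0.82) and *Cxcl12* (0.86). *Pdgfd* lay nearest to *Clec14a* (0.58), *Fstl1* (0.65), *Gja4* (0.65) and *Angptl2* (0.67), and *Pdgfa* to *Cd200* (0.32), *Tspan15* (0.34), *Pmp22* (0.35) and *Adgrg1* (0.35). *Pdgfb* lay nearest to *Wasl* (0.14), *Rsu1* (0.15), *Tagln2* (0.15) and *Dusp3* (0.16), and *Pdgfc* to *Trove2* (0.38), *Sort1* (0.38), *Rab3d* (0.39) and *Rtl8a* (0.39).

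Of the 7 genes, 5 are in the authors' deposited table of 2201 genes, whose lowest log2 fold change is 3.50. The authors' deposited table gives log2 fold changes of 3.77 for *Pdgfa*, 5.18 for *Pdgfd*, 6.87 for *Pdgfra*, 7.57 for *Pdgfrb* and 5.69 for *Pdgfrl*. The value for *Pdgfra*, the gene with 0 counts in 6 whole spleen samples, is the one farthest from the edgeR estimate of 8.04. *Pdgfb* and *Pdgfc*, whose estimates here are below 3.50, are not among its rows.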

How the data were processed

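RNA-seq estimated counts per gene were analysed in 16 samples. Per the submitters' processing notes, reads were handled with Trim Galore, STAR, RSEM and DESeq on mm10, with versions and order not given in the sources used here. The deposited table holds the authors' expected counts. A second deposited table, per the file headers, holds the authors' mean signal per gene, log2 fold change, test score, p-value, and mean TPM and FPKM per group, of which the log2 fold change and TPM were used. No column of per-sample values was left out (0 of the table's sample columns).

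Counts as deposited were rounded, filtered with filterByExpr (minimum count 10), scaled by TMM and tested with edgeR 4.0.16 in R 4.3.3. A call needs an adjusted p under 0.05 (Benjamini-Hochberg over all genes tested). Fraction fits used all 16 samples, sex fits the 8 of a fraction. CPM use TMM-scaled totals, and log2 CPM a prior count of 2. The ratio of *Pdgfa* to *Pdgfb* was compared by exact two-sided permutation, with adjustment over all the ratios. Constants were found from ratios of values to whole numbers. The fits and the search were tested on simulated data. Alternatives included RLE scaling, library totals, other filters, DESeq2 1.42.0, limma-voom (limma 3.58.1), sex as a covariate, 1 sex, other lengths, restored counts, a replicate block, and leaving out each number. Restored counts in the sex, interaction and per-length values, and together with the block, were chosen after seeing the data.

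The 16 samples pair by number: deviations from the group mean correlated at r from 0.12 to 0.38 (across genes) between same-numbered samples, and -0.03 on average otherwise.

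The members and lists were chosen with earlier results of these data known. The rule for named genes took all 7 members. From the pathway lists it took the largest called rise and fall, and every tested gene of the cleavage, binding and class III lists. It also took the 2 most abundant markers of each cell list in the size-selected samples, the 4 genes most like each member other than *Pdgfrl*, and the nearest protein-coding neighbours. *Higd1b*, *Cd4*, *Cd5l* and the antisense gene were named after their values were seen. Of 54838 identifiers, 54723 were in GENCODE M21. Promoter windows come from RefSeq.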

Additional observations from a re-analysis of the deposited data

How the results depend on the processing

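Each PDGF gene kept its direction and its call in every alternative that tested it. With a minimum count of 50, *Pdgfc* and *Pdgfrl* were not tested and 5 genes were called. The largest adjusted p was 0.0409 for *Pdgfb* in males only (edgeR). Leaving out each number gave log2 fold changes of 7.76 (without 436) to 9.03 (without 435) for *Pdgfra*, 7.39 (without 460) to 7.90 (without 427) for *Pdgfrb*, and 0.73 (without 427) to 0.95 (without 435) for *Pdgfb*. In a single sex *Pdgfra* gave 6.93 in males and 12.33 in females, where whole spleen is at 0 and the value is no bound. *Pdgfrb* gave 6.72 and 8.99. A replicate block on the number called 10076 genes in all, among them all 7 PDGF genes, against 9855 and 7 without it, and the block changed no call of a PDGF gene. Together with restored counts it gave 10113 and 7. Library totals in place of TMM moved the median log2 fold change of all genes from 0.05 to 0.18. The genes of the pathway and class III lists called lower were 10, and 6 in males only, 7 with library totals, 12 with RLE scaling or the replicate block, 13 in females only or with no filter, and 9 to 12 without 1 number. Per length, the longest transcript moved levels by more than their SD in the size-selected samples (*Pdgfa* to 14.6, *Pdgfb* to 5.93 and *Pdgfra* to 5.88 CPM per kb) and in whole spleen (*Pdgfa* to 1.12, *Pdgfb* to 3.31 and *Pdgfc* to 0.564). Depth limits the whole spleen values of *Pdgfra*, *Pdgfrb*, *Pdgfrl* and *Pdgfd*, which rest on at most 28 counts in a sample.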

Other observations

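Genes next to the PDGF genes were compared as well. *Pdgfrl* lies 128 bases from *Mtus1* and 3903 bases from *Slc7a2*, which encodes a transporter of cationic amino acids, and both rose with it: *Mtus1* from 1.22 ± 0.926 to 39.8 ± 13.2 CPM (log2 fold change 5.04, edgeR adjusted p = 5.93e-10) and *Slc7a2* from 2.88 ± 0.946 to 41.5 ± 16.8 CPM (3.84, adjusted p = 2.09e-09; SD, n = 8 each). *Casp12*, 795551 bases from *Pdgfd*, rose by 5.01, and on its other side *Dync2h1*, a motor protein gene of cilia, rose by 0.83. *Prkar1b*, next to *Pdgfa*, rose by 2.33 and *Ctso*, next to *Pdgfc*, by 1.02. Around *Pdgfb* the neighbours moved in opposite directions, *Cbx7* by 0.58 and the ribosomal protein gene *Rpl3* by -1.03, both called by edgeR.

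The class III receptor genes *Kit* and *Csf1r* lie next to *Pdgfra* and *Pdgfrb*, at 376700 and 15536 bases. Their log2 fold changes of 0.51 and 1.92 stand beside 8.04 and 7.59 for the PDGF receptor genes. The homeobox genes *Gsx2* and *Cdx1*, on the other sides, were at 0 in every sample.

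In each of 20 groups of 8 values of the PDGF genes and their ratios, the highest and lowest samples were screened for a gap to the rest. None lay apart, where chance gives about 1.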
